A study of Mus musculus with 6 samples.

Results

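Transcripts of 7 receptor genes for chemokines and other chemoattractants were followed in RAW 264.7 cells given a plant polysaccharide: Cx3cr1, Ccr1, Ccr2, Ccrl2, Cxcr4, Fpr1 and Fpr2. They were taken by symbol, and all 7 were among the 22192 genes of the deposited count table. Polyadenylated RNA was sequenced from 6 libraries of RAW 264.7, an established macrophage-like line labelled with the mouse strain BALB/c. In 3 of them the cells had been kept for 24 h in medium with 200 µg/mL of ASPS-A1, the purified acidic polysaccharide fraction of Acanthopanax senticosus leaves. The remaining 3 carry the treatment label control, with no vehicle or medium named. The labels do not say whether the libraries of a group came from separate cultures, so the p-values measure the spread between these libraries, which may be technical.

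Chemokine receptors are G protein-coupled receptors that let leukocytes sense gradients of small secreted proteins and move along them. Signalling runs mainly through inhibitory G proteins to phospholipase C and phosphoinositide 3-kinase gamma, and is ended by receptor kinases and arrestins. Formyl peptide receptors, encoded by Fpr1 and Fpr2, work the same way but sense bacterial peptides and products of tissue damage, and Ccrl2 is an atypical receptor that binds chemerin without itself driving migration. Monocytes are commonly sorted by the balance between CCR2, which draws them out of marrow and into inflamed tissue, and CX3CR1, the receptor for the membrane-tethered chemokine fractalkine.

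The libraries held 19989318 to 22179544 counts with ASPS-A1 and 23113454 to 26137127 in control. Of 11686 genes with enough counts to test, 65.3% passed an adjusted p of 0.05 (edgeR's quasi-likelihood test, Benjamini-Hochberg adjusted across every tested gene), 3783 of them higher with ASPS-A1 and 3852 lower. With scaling by library totals alone, 2529 were higher and 5454 lower, and the median log2 fold change of all tested genes shifted by -0.19. Of 8 macrophage markers 7, all but Mertk, were at or above 1 CPM (counts scaled to library size) in all 6 libraries, and their summed level was 1933 to 1955 CPM in control and 2826 to 2970 CPM with ASPS-A1. Of 7 neutrophil markers 5 (S100a9, Ly6g, Mpo, Elane and Ngp) had no count, and the list summed to at most 0.159 CPM. Markers of fibroblasts, T cells and epithelium summed to at most 0.978 CPM, and Cd3e, Cd3g, Epcam and Krt8 had no count. In the lists for B cells, endothelium and dendritic cells, 1 gene each (Cd79b, Pecam1 and Zbtb46) reached 1 CPM in all libraries, and the endothelial list summed to 12.6 to 13.9 CPM with ASPS-A1 and 6.85 to 8.15 in control. The B cell list summed to 31.8 to 38.3 CPM with ASPS-A1 and 30.3 to 32.6 in control, and the dendritic cell list to 2.58 to 4.24 and 3.67 to 4.32 CPM. The part of these markers in the receptor results was not tested.

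Of the 7 receptors, 1 was lower with ASPS-A1, 0 were higher and 3 did not pass the threshold, and 3 had too few counts to test. The one that fell, Cx3cr1, was 6.46-fold lower, while Ccrl2, Ccr2 and Cxcr4 had intervals that spanned no change. The background for that count is 33.0% of all tested genes lower and 32.4% higher. At an unadjusted p of 0.05 the number higher was also 0, as it was with DESeq2. Ccr1, Fpr1 and Fpr2 were close to the limit of detection in both groups. Bulk RNA cannot tell fewer cells that express a receptor from less receptor RNA in each cell.

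The stretches just upstream of the start sites of Cx3cr1, the receptor that fell, and of Ccrl2, the best-counted receptor that did not pass, are shown for comparison. They come from RefSeq on GRCm38.p6 and run 5′ to 3′ on the gene's strand over the 250 bases before the annotated start. They lie at chr9:120068297-120068546 and chr9:111057519-111057768, both on the minus strand, and all 7 genes had an entry. Ccrl2 has 3 annotated start sites, of which the farthest upstream is shown. Capitals mark a match to the NF-kB consensus.
Cx3cr1: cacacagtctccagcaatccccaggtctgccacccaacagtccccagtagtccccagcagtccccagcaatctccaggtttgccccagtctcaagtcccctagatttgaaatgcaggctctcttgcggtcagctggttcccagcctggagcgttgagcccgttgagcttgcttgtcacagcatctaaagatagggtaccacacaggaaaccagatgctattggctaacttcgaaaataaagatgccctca
Ccrl2: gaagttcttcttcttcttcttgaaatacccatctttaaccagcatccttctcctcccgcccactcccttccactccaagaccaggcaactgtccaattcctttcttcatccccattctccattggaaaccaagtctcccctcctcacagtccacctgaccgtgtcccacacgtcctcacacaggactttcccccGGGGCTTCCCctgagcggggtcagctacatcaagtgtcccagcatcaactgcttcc

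Each window was searched on both strands for the NF-kB consensus, for the AP-1 site TGANTCA and for GAGGAA, a core bound by the myeloid factor PU.1, and no motif's matches overlapped another's. The window shown for Ccrl2 held 1 NF-kB match, whose first base lay 56 bases upstream of the start. The windows of its other annotated start sites held none of the 3 motifs, and neither did that of Cx3cr1. Among 32851 RefSeq windows of the same length, 3.90% held an NF-kB match, 6.75% an AP-1 match and 23.2% the PU.1 core. Of the other receptors, Ccr1 had a PU.1 core 129 bases and Fpr2 one 19 bases upstream, and Ccr2, Cxcr4 and Fpr1 had no match. A match describes letters only and does not show that a factor binds.

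Cx3cr1, the fractalkine receptor, had 538, 466 and 677 counts in control replicates 1, 2 and 3 and 86, 56 and 50 counts with ASPS-A1. Scaled to library size these were 21.7, 18.0 and 24.0 CPM in control and 4.11, 3.04 and 2.65 CPM with ASPS-A1. Every ASPS-A1 library lay below every control library, which was so for 34.8% of all tested genes. The mean level fell from 21.2 ± 3.00 to 3.27 ± 0.753 CPM (SD, n = 3 per group). The log2 fold change was -2.69 ± 0.144 (SE; 95% interval -2.98 to -2.40; edgeR adjusted p = 1.28e-20), which is 5.28- to 7.90-fold lower. Only 22 of the 11686 tested genes had a lower log2 fold change. Relative to the median of all tested genes the difference was -2.67, both with TMM scaling and with library totals alone. A change of scaling shifts all genes nearly alike, so this match is given by construction and is no separate check. Of the exon length of Cx3cr1, 1.73% is shared with another annotated gene, Gm33858.

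**Figure D1:**
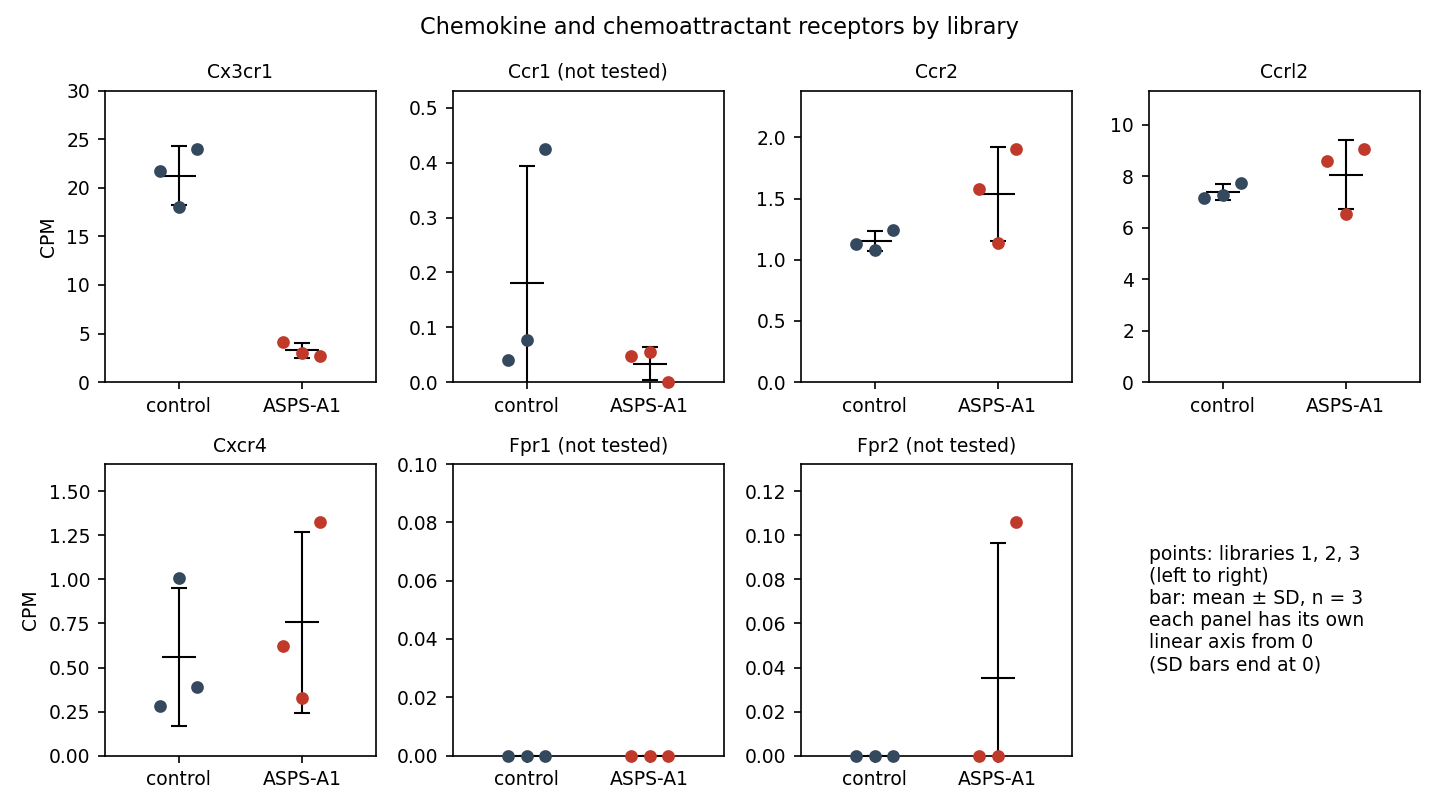
Each panel plots the level of 1 receptor in CPM on a linear axis from 0, with a point for each library and the mean ± SD of 3 libraries per group. The control points for Cx3cr1 sit between 18.0 and 24.0 CPM and the ASPS-A1 points between 2.65 and 4.11 CPM, while the groups overlap or are both at 0 in the other 6 panels, where 68.5% of all tested genes had groups that did not overlap. Ccr1, Fpr1 and Fpr2 are not among the tested genes.

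Ccrl2, the atypical receptor for chemerin, was the member closest in depth to Cx3cr1. It had 177, 188 and 218 counts in control and 180, 120 and 171 with ASPS-A1. In CPM these were 7.14, 7.28 and 7.73 in control and 8.59, 6.52 and 9.06 with ASPS-A1. The ASPS-A1 libraries lay on both sides of the control range. The log2 fold change was 0.13 ± 0.146 (SE; 95% interval -0.17 to 0.42; edgeR adjusted p = 0.457), so that changes beyond 1.34-fold higher or 0.891 times the control level lay outside the interval. With library totals alone the estimate turned to -0.067 (edgeR adjusted p = 0.707). Relative to the median of all tested genes it was 0.15 under either scaling, which is again given by construction.

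Ccr2, the receptor for Ccl2 and Ccl7, had 28, 28 and 35 counts in control and 33, 21 and 36 with ASPS-A1. Its levels were 1.13, 1.08 and 1.24 CPM in control and 1.57, 1.14 and 1.91 CPM with ASPS-A1. ASPS-A1 replicate 2 fell within the control range and the other ASPS-A1 libraries lay above it. The log2 fold change was 0.42 ± 0.345 (SE; edgeR adjusted p = 0.290), and the 95% interval ran from 0.826 to 2.17 times the control level, a range that includes no change.

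Cxcr4, the receptor for Cxcl12 that retains leukocytes in marrow, was the most variable of the 4 tested members. It had 7, 26 and 11 counts in control and 13, 6 and 25 with ASPS-A1, which correspond to 0.282, 1.01 and 0.390 CPM and to 0.621, 0.326 and 1.32 CPM. One library of each group stood above the others, and the groups overlapped over most of their range. The log2 fold change was 0.43 ± 0.504 (SE; 95% interval -0.58 to 1.45; edgeR adjusted p = 0.463), and it was -0.22 without ASPS-A1 replicate 3 (adjusted p = 0.773) and 1.15 without control replicate 2 (adjusted p = 0.101). No difference of Cxcr4 was detectable in these libraries.

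**Figure D2:**
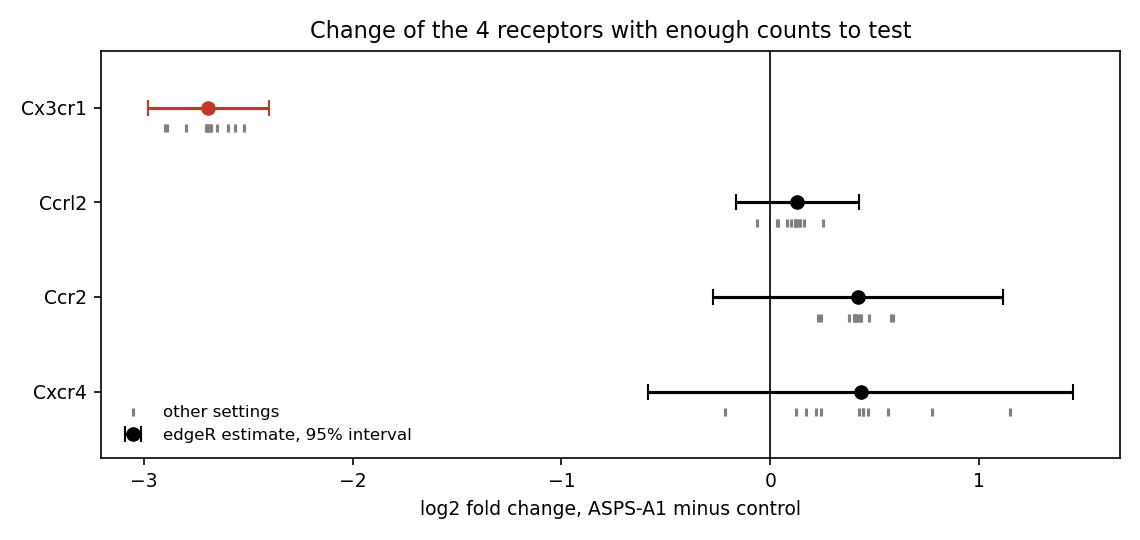
The horizontal axis gives the log2 fold change, ASPS-A1 minus control, of the 4 tested receptors, with edgeR's 95% interval, and the grey ticks give the estimates under other processing settings and without single libraries. The interval of Cx3cr1 lies from -2.98 to -2.40, and those of Ccrl2, Ccr2 and Cxcr4 include 0.

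Ccr1, a receptor shared by several inflammatory CC chemokines, had 1, 2 and 12 counts in control and 1, 1 and 0 with ASPS-A1. Of the 15 control counts, 12 came from control replicate 3, and the other control libraries held 3 counts together, against 2 over the ASPS-A1 libraries. The pooled ratio was 5.54-fold lower with ASPS-A1, with an exact interval of 1.29 to 49.9 that covers counting error only and rests on that library. Fitted with no filter on low counts, the log2 fold change was -2.27 (edgeR adjusted p = 0.144).

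Fpr1, the high-affinity formyl peptide receptor, had 0 counts in all 6 libraries. The limit that a count of 0 allows, 3 counts over a group, was 0.0481 CPM with ASPS-A1 and 0.0407 CPM in control, for counting error only. These limits use library totals without TMM scaling, unlike the other CPM values. Fpr2, which also senses serum amyloid A and annexin A1, had 2 counts, both in ASPS-A1 replicate 3, and 0 in the other 5 libraries. Both groups were at or under the limit, so no fold change is given. In the annotation used, 3.70% of the exon length of Fpr2 is shared with its paralog Fpr3, which had 0 counts.

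The fall of Cx3cr1 changed the make-up of these transcripts. Summed over the 7 receptors, the level was 30.3, 27.5 and 33.8 CPM in control and 14.9, 11.1 and 15.04 CPM with ASPS-A1. Without Cx3cr1 the sum was 8.59, 9.45 and 9.78 CPM in control and 10.8, 8.04 and 12.4 CPM with ASPS-A1, and the groups overlapped. Cx3cr1 made up 69.4% ± 3.31 of the receptors' counts in control and 24.2% ± 5.69 with ASPS-A1, whereas Ccrl2 made up 24.3% ± 1.91 and 58.9% ± 1.35 (SD, n = 3). These shares restate the level of Cx3cr1 and are not a separate test.

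Per kilobase of the longest annotated transcript (RPKM), Cx3cr1 ranked first of the 7 in control at 4.73 ± 0.669 RPKM (SD, n = 3), above Ccrl2 at 3.00 ± 0.125. Cxcr4 (0.310 ± 0.216 RPKM) and Ccr2 (0.201 ± 0.0141) followed and overlapped each other, and Ccr1, Fpr1 and Fpr2 were at most 0.0639 RPKM on average. With ASPS-A1 Ccrl2 ranked first at 3.28 ± 0.549 RPKM, and Cx3cr1 at 0.727 ± 0.168 overlapped Cxcr4 at 0.419 ± 0.284. Among all 46 listed receptors with a transcript length, Cx3cr1 ranked 3 in control, after the complement receptor gene C5ar1 (5.96 RPKM) and the oxysterol receptor gene Gpr183 (5.48 RPKM), and its range overlapped that of Gpr183. With ASPS-A1 its rank was 9.

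**Figure D3:**
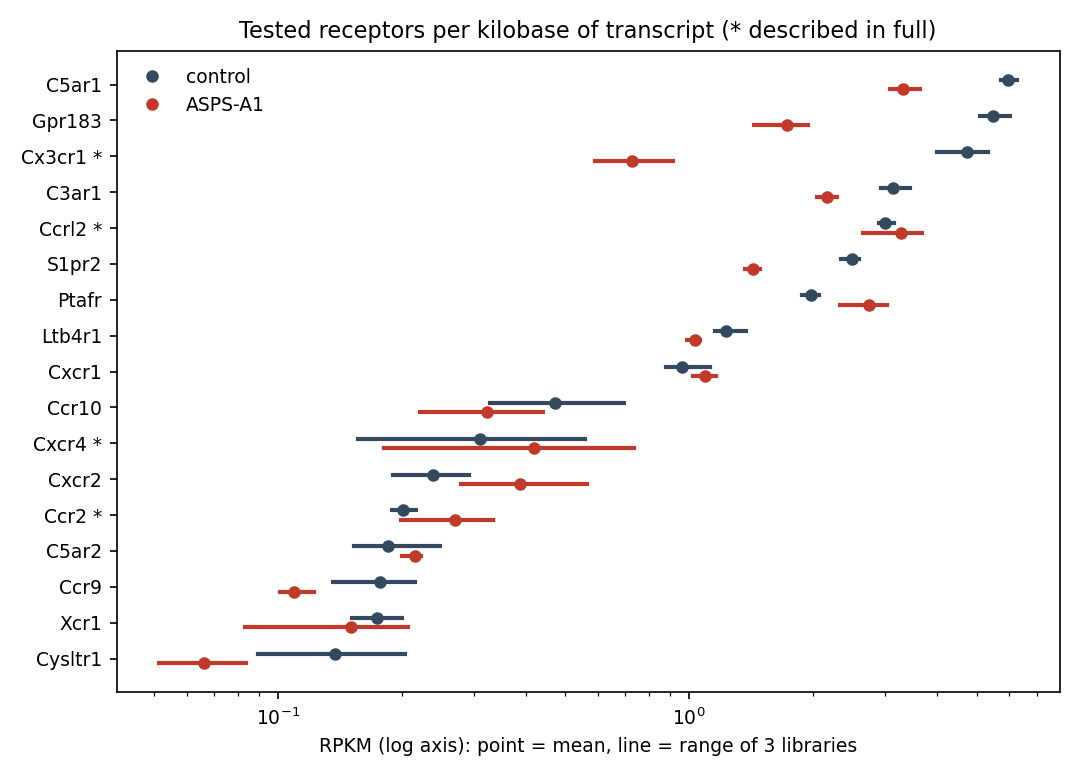
Levels in RPKM on a log axis are plotted for the 17 listed receptors with enough counts to test, with the mean and the range of 3 libraries in each group. Cx3cr1 moves from 4.73 RPKM in control to 0.727 RPKM with ASPS-A1, while the ranges of Ccrl2, Cxcr4 and Ccr2 overlap between groups.

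Other classical chemokine receptors were scarce. Of 14 such genes only 5 had enough counts to test, and 0 were higher and 0 lower (edgeR), with 0 also at an unadjusted p of 0.05 and with DESeq2. Their median log2 fold change was -0.21, against -0.021 for all tested genes. That median was -0.50 without ASPS-A1 replicate 2, and it turned to 0.075 with ASPS-A1 replicate 3 left out and to 0.099 with control replicate 2 left out. Cxcr2, a receptor for neutrophil-attracting chemokines, had 0.726 ± 0.154 CPM in control and 1.18 ± 0.470 with ASPS-A1 (log2 fold change 0.71 ± 0.401 SE, adjusted p = 0.114, edgeR). Cxcr1, its close relative, stood at 1.40 ± 0.198 and 1.58 ± 0.101 CPM. Ccr9 was at 0.920 and 0.568 CPM, with 21.4% of its exon length shared with neighbouring genes, and Ccr10 (log2 fold change -0.55) and Xcr1 (-0.21) were no better resolved. Ccr7 had 6, 4 and 2 counts in control and 8, 10 and 11 with ASPS-A1, too few for the filter. It was not called with all 6 libraries and no filter, and it passed with ASPS-A1 replicate 1 left out (log2 fold change 1.85, edgeR adjusted p = 0.0262) and with control replicate 1 left out (2.11, adjusted p = 0.0192). Ccr7 was named after its values were seen.

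Of 6 genes listed as atypical chemokine receptors, a class that binds chemokines without G protein signalling, none had enough counts to test. Whether each of them binds a chemokine in these cells was not tested. Ackr2, a scavenger of CC chemokines, had 23, 8 and 17 counts in control and 1, 3 and 1 with ASPS-A1. Gpr182 had 16, 7 and 19 counts in control and 2, 1 and 3 with ASPS-A1. For both genes every ASPS-A1 library lay below every control library, as did 34.8% of all tested genes. That share leaves out genes too scarce to test, such as Ackr2 and Gpr182, and the share among those was not computed. With no filter on low counts both were lower (edgeR log2 fold change -2.76 and -2.31, adjusted p = 0.00184 and 0.0108), and Pitpnm3, with 1, 3 and 3 counts with ASPS-A1 and 0 in control, was higher (adjusted p = 0.0363). Ackr4 had 5, 8 and 7 counts in control and 6, 20 and 3 with ASPS-A1, and its groups overlapped. Ackr2, Gpr182, Pitpnm3 and Ackr4 were named after their values were seen.

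Among receptors for complement, lipid and oxysterol attractants, Gpr183, C5ar1, S1pr2 and C3ar1 fell and Ptafr rose. Of 8 tested genes 4 fell, 1 rose and 3 did not pass, where 33.0% of all tested genes were lower and 32.4% higher. The median log2 fold change was -0.67, and under other settings it ran from -0.86 (library totals alone) to -0.44 (no filter on low counts). Gpr183, which guides cells towards oxysterols, fell from 14.9 ± 1.33 to 4.71 ± 0.717 CPM (log2 fold change -1.66 ± 0.138 SE, edgeR adjusted p = 1.23e-14). C5ar1, the receptor for complement C5a, fell from 15.2 ± 0.687 to 8.41 ± 0.733 CPM, and the sphingosine-1-phosphate receptor gene S1pr2 fell from 15.9 ± 0.846 to 9.16 ± 0.386 CPM. The receptor for complement C3a, C3ar1, also fell, by 0.53 on the log2 scale, and was named after its value was seen. Ptafr, the receptor for platelet-activating factor, rose from 7.21 ± 0.334 to 9.98 ± 1.33 CPM (log2 fold change 0.47, adjusted p = 0.00267, edgeR), and with library totals alone it did not pass (0.28, adjusted p = 0.0793).

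Ligands of the 7 receptors moved mostly the other way from Cx3cr1. Of 11 tested ligand genes 9 rose and 2 fell, with a median log2 fold change of 2.06, where 32.4% of all tested genes were higher and 33.0% lower. With the length and GC offsets 8 rose and the median was 1.69, and with library totals alone the median was 1.86. Ccl2 and Ccl7, the ligands of Ccr2, rose 7.63-fold to 92.6 ± 5.86 CPM and 21.0-fold to 9.20 ± 0.978 CPM, while Ccr2 itself had the levels given above. Ligands of Ccr1 also rose, with Ccl3 at 141 ± 3.80 and 587 ± 11.6 CPM and Ccl9 at 276 ± 14.2 and 937 ± 59.2 CPM in control and with ASPS-A1, in cells that held 2 to 15 counts of Ccr1 per group. Saa3, a serum amyloid A gene of the family that Fpr2 senses, had the largest rise of the list (log2 fold change 5.30 ± 0.0752 SE), and Anxa1, which encodes another Fpr2 ligand, fell from 89.1 ± 2.27 to 67.9 ± 3.24 CPM. Cx3cl1, which encodes fractalkine, had 35, 49 and 39 counts in control and 21, 14 and 9 with ASPS-A1. Its groups did not overlap, and it fell by 1.05 ± 0.378 (SE) on the log2 scale (edgeR adjusted p = 0.0137), so ligand and receptor of this pair were both lower. That call of Cx3cl1 was lost without ASPS-A1 replicate 3 (-0.81, adjusted p = 0.0816) or control replicate 2 (-0.89, adjusted p = 0.0791). Cxcl12, Rarres2, which encodes chemerin, Ccl8, Ccl12 and Camp had too few counts to test. Ccl3 and Ccl9 were named after their values were seen.

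Of 26 tested G proteins and effectors downstream of these receptors 9 rose, 10 fell and 7 did not pass, shares near the 32.4% higher and 33.0% lower of all tested genes. The median log2 fold change was 0.050, or -0.15 with library totals alone and -0.0053 without ASPS-A1 replicate 1. Gnai2, the main inhibitory G protein of leukocyte chemotaxis, was at 541 ± 18.8 CPM in control and 549 ± 33.0 with ASPS-A1 (log2 fold change 0.022 ± 0.0489 SE, edgeR adjusted p = 0.711). Pik3cg, the catalytic subunit of phosphoinositide 3-kinase gamma, fell from 34.0 ± 1.76 to 20.2 ± 0.868 CPM, and the G protein subunit genes Gnaq (-0.62) and Gnb4 (-0.70) also fell. Gnb4 lost its call with the length and GC offsets (-0.50, adjusted p = 0.0984) and without ASPS-A1 replicate 1 or 2 or control replicate 1 or 3 (-0.57 to -0.68, adjusted p = 0.0534 to 0.0905). Gng5 (0.96) and Gng10 (0.50) rose, Gng10 with 72.0% of its exon length shared and a value of 0.091 (adjusted p = 0.112) with the offsets. Gnai2 was named after its value was seen.

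Of 14 tested receptor kinases, arrestins, RGS proteins and the ligase Itch, which curb receptor signalling, 6 rose, 5 fell and 3 did not pass, beside 32.4% of all tested genes higher and 33.0% lower, and 3 rose with library totals alone. The median log2 fold change was 0.082, or -0.11 with library totals alone and -0.095 with the length and GC offsets. Arrb1, which encodes arrestin beta 1, fell 2.42-fold from 110 ± 2.80 to 45.3 ± 0.726 CPM (log2 fold change -1.27 ± 0.0586 SE, edgeR adjusted p = 1.39e-23). Itch, the ubiquitin ligase that sends CXCR4 to lysosomes, fell from 115 ± 5.23 to 67.6 ± 7.90 CPM, and Rgs16 fell by 1.42 on the log2 scale, with 10.1% of its exon length shared. Rgs1 rose from 5.37 ± 0.911 to 8.47 ± 0.235 CPM and Rgs3 from 24.0 ± 1.92 to 35.4 ± 0.848 CPM. The receptor kinase gene Grk5 rose by 0.51, and this call was lost without ASPS-A1 replicate 3 (0.34, adjusted p = 0.120), without control replicate 3 (0.43, adjusted p = 0.0520) and with library totals alone (0.32, adjusted p = 0.103).

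**Figure D4:**
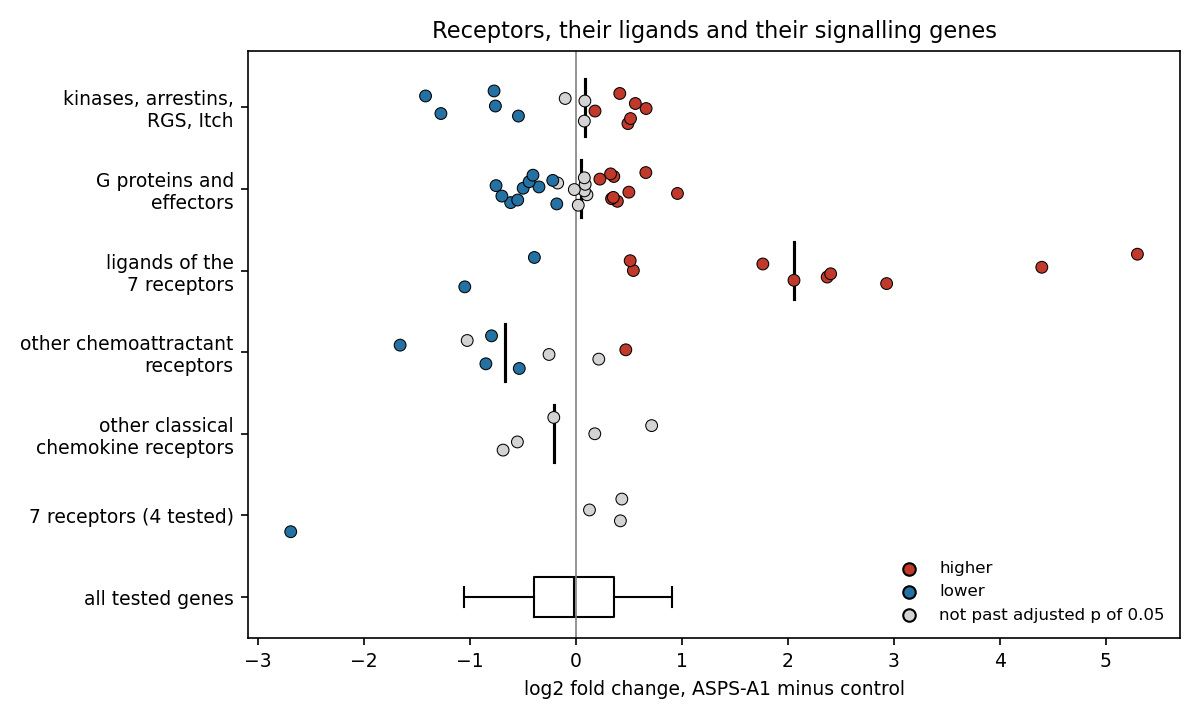
Each point is a tested gene placed by its log2 fold change, ASPS-A1 minus control, coloured by whether it passed an adjusted p of 0.05, with a vertical line at the median of each list other than the 7 receptors. The box for all tested genes spans the quartiles with whiskers at the 5th and 95th percentiles. Cx3cr1 stands at -2.69 on the left, and the ligand genes lie mostly to the right with a median of 2.06.

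The genes whose pattern over the 6 libraries was most like that of Cx3cr1 were Ankrd37 and Tbc1d8. Likeness was the root mean square difference between log2 profiles centred on the control mean, over 8412 candidate genes, and it was 0.198 for Ankrd37 and 0.203 for Tbc1d8. Ankrd37 was at 35.6 ± 2.07 CPM in control and 5.88 ± 0.643 with ASPS-A1, and Tbc1d8 at 14.3 ± 0.538 and 2.35 ± 0.745. Their exon lengths are shared with neighbours over 26.4% and 8.02%. Nearest to Ccr2 were E2f1 (0.0463) and Iqcb1 (0.0503), nearest to Ccrl2 were Qtrt2 (0.0336) and Odr4 (0.0487), and nearest to Cxcr4 were Tcaim (0.295) and Ginm1 (0.316). The profile of Cxcr4, with 44 counts in each group, had no match as near as those of the other tested receptors. Candidates had at least 10 CPM, so genes as scarce as Cxcr4 or Ccr2 were not compared. The offset of 0.5 also compresses profiles near 1 CPM, so the distances do not rank the receptors. E2f1 and Iqcb1 were called higher (edgeR adjusted p = 0.00944 and 0.0025), whereas Ccr2 was not called.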

How the data were processed

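RNA of 6 RAW 264.7 libraries was counted per gene symbol. The deposited table holds raw counts in whole numbers, 1 column per library, which the authors made with fastp (0.22.0), HISAT2 (2.1.0) and HTSeq (0.9.1), per the submitters' processing notes, which also name DESeq (1.38.3). Genome build, annotation, strand setting and the rule for reads with several matches were not given in the sources used here. Libraries were grouped by treatment label.

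Genes passing filterByExpr (minimum count 10, minimum total 15) were scaled with TMM and fitted with edgeR 4.0.16 in R 4.3.3 (estimateDisp and glmQLFit, robust; two-sided glmQLFTest; adjusted p threshold 0.05). The common biological coefficient of variation was 5.66%. Standard errors are |log2 fold change| over the root of F. CPM use TMM-scaled totals of tested genes, and RPKM divide them by the longest GENCODE M21 transcript (GRCm38), found for 95.8% of tested genes. Only the detection limits given for Fpr1 use library totals without TMM scaling. The model was tested on simulated data. Same-group libraries had a chi-square per degree of freedom of 4.34 to 7.12, so none was a copy.

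The members and the 6 other lists were chosen with earlier results of these data known. Named genes are the 7 members, up to 3 called genes of at least 1 CPM per list and direction, all genes of lists with 5 or fewer tested, and the 2 genes nearest to each tested member (at least 10 CPM, offset 0.5, no predicted models). The results of some listed genes are not reported here. Alternatives were relative log expression factors, library totals alone, DESeq2 1.42.0, no filter, at least 1 CPM in 3 libraries, a replicate block, offsets removing a lowess trend (span 0.3) on length and GC content, and leaving out each library.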

Additional observations from a re-analysis of the deposited data

How the results depend on the processing

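Under all 13 alternatives Cx3cr1 was the only one of the 7 receptors called, with log2 fold changes from -2.90 to -2.52, and no receptor was called higher. Ccr2 ranged from 0.23 to 0.58 and passed in none. Cxcr4 was not kept by the filter of at least 1 CPM in 3 libraries. Estimates that changed sign were Ccrl2 (-0.067) and Cxcr1 (-0.016) with library totals alone, Cxcr1 (-0.13) with the length and GC offsets, and, without ASPS-A1 replicate 3, Cxcr4 (-0.22) and Xcr1 (0.075), none of them called. Without single libraries Cxcr4 ran from -0.22 to 1.15 and Xcr1 from -0.50 to 0.075. With library totals alone the number of risen chemoattractant receptors was 0 and of risen kinases, arrestins and RGS proteins 3. With no filter 2 genes of the atypical receptor list were lower and 1 higher. Leaving out single libraries gave 0 to 1 risen classical receptors, 0 to 2 fallen atypical receptors and 1 to 2 fallen ligands. The median of the other classical receptors was 0.17 with at least 1 CPM in 3 libraries, where fewer genes were tested, and -0.50 to 0.099 without single libraries. The median of the kinases, arrestins and RGS proteins was -0.11 with library totals alone and -0.095 with the length and GC offsets. The cause of the other shifts was not tested.

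With the replicate block, Cx3cr1 had a log2 fold change of -2.69, and it changed no call of a receptor. The labels do not say whether library numbers pair the samples. Deviations from the group mean of same-numbered libraries had correlations of -0.00183, -0.000409 and 0.0103 across genes. Scarce genes, with much counting noise, weigh as much as others there, so these values do not settle the pairing. Ccr1, Fpr1 and Fpr2 had too few counts to test. For Cxcr4 the control level over that with ASPS-A1 had an interval of 0.475 to 1.15 from counting error alone, narrower than that of the fit, which also holds the spread between libraries.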
